A study of Mus musculus with 21 samples.

Results

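The change in gene expression from embryonic (E15.5) telencephalon to postnatal day 7 (P7) brain was described in mice lacking linc-Brn1b, and the same step was set beside it in wild type. linc-Brn1b is a long intergenic noncoding RNA (lincRNA) transcribed next to Pou3f3, the gene of the neural transcription factor Brn1. The knockout groups were linc-Brn1b-/- telencephalon at E15.5, for which the labels list 3 libraries, and linc-Brn1b-/- whole brain at P7, with 2 libraries. Their wild-type counterparts, linc-Brn1b+/+ telencephalon at E15.5 and whole brain at P7, had 2 libraries each. In the knockout a lacZ reporter cassette replaced the lincRNA gene in embryonic stem cells of the hybrid line VGF1, whose parents were 129S6S v/Ev and C57BL/6N, and the mice were backcrossed 1 time to C57BL/6J. The knockout and wild-type groups shared no sample. Telencephalon at E13.5 of the same strain, 2 libraries in each genotype, is used only where it is named.

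A gene was kept when its value was at least 1 FPKM (fragments per kilobase of transcript, scaled to the number of mapped fragments) in either knockout group. This kept 14853 of the 40770 entries of the table, or 36.4%. Of these, 12715 reached 1 FPKM at both ages, 757 at E15.5 alone and 1381 at P7 alone. At the edge of the rule, Kcne4 was just inside with 1.001 FPKM at P7 and Krt18 just outside with 0.999 FPKM at P7. For each gene the step is log2((P7 + 1)/(E15.5 + 1)), with 1 FPKM added to each value, so that a positive step means a higher level in P7 brain. The table holds 1 value per group and none per library. No spread between animals, no interval and no test could therefore be computed, and every value below is the authors' value for a group, without a replicate check. A gene is called higher or lower at P7 when its step is at least 1 in size, which is a description and not a test.

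The embryonic telencephalon at E15.5 is a neurogenic tissue, in which radial glia line the ventricle, divide, and give rise to intermediate progenitors and neurons that migrate outward to build the cortex. After birth neurogenesis in most of the forebrain gives way to the birth of astrocytes and oligodendrocytes, and neurons grow axons, form synapses and exchange embryonic for mature receptor subunits. Whole brain at P7 also holds the cerebellum, where granule neuron precursors still divide, and the hindbrain, where myelin is laid down early. Age and dissected region changed together between the groups and cannot be told apart. In bulk tissue, fewer cells of a type and less RNA per cell cannot be told apart either.

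The labelled tissues were compared with regional marker genes before the steps were read. Telencephalon markers were present in all groups, with the cortical factor Emx1 at 35.7 FPKM in knockout and 32.2 FPKM in wild type at E15.5, and at 11.7 and 10.1 FPKM at P7. The labels give the P7 tissue as brain, and the paper describes it as whole brain. In the knockout P7 group the Hox genes, which mark hindbrain and spinal cord, went against that description. All 19 Hox genes on the list were at or below 0.0448 FPKM in knockout P7 brain, whereas wild-type P7 brain reached 5.06 FPKM for Hoxa5 and 3.61 FPKM for Hoxb5, and their summed level was 0.136 FPKM against 19.5 FPKM. The list also holds other hindbrain and spinal genes. Of its 24 genes, 21 were lower in knockout than in wild-type P7 brain. The 2 members that passed the 1 FPKM rule were both higher in the knockout. Cerebellar markers were also lower in knockout P7 brain than in wild type for 22 of 25 genes, and under 0.5 times the wild-type value for 14. Of the 16 cerebellar markers kept, 13 were lower, compared with 47.5% of all genes kept. The share of all genes under 0.5 times the wild-type value was not counted at either age. The Purkinje cell gene Pcp2 stood at 1.48 FPKM against 14.7 FPKM, and the granule cell factor Barhl1 at 0.939 FPKM against 4.25 FPKM. Pomc, the hormone precursor of the pituitary and arcuate nucleus, was 1.15 FPKM in knockout P7 brain and 26.6 FPKM in wild type. The knockout P7 library pool thus lacked transcripts of the hindbrain Hox code that the wild-type pool held.

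The E15.5 groups differed in choroid plexus, the secretory epithelium of the ventricles. Of 16 choroid plexus markers, 12 were under 0.5 times the wild-type value in knockout E15.5 telencephalon. Only 3 of the 16 reached 1 FPKM there, and 9 did in wild type. Of the 10 markers kept, 9 were lower in knockout than in wild type at E15.5, as were 6927 of all 14853 genes kept. Ttr, the thyroid hormone carrier transthyretin, was 1.39 FPKM in knockout and 231 FPKM in wild type at that age, and Folr1, a folate receptor, was 0.290 FPKM against 3.82 FPKM. At P7 no choroid plexus marker was under 0.5 times the wild-type value. Y-linked RNA was present in the knockout groups at both ages and near 0 in the wild-type groups. Eif2s3y, a Y-linked translation factor gene, was 9.94 FPKM in knockout E15.5, 11.7 FPKM in knockout P7 and at most 0.00727 FPKM in either wild-type group, so genotype and sex cannot be told apart in any comparison with wild type. At E13.5 the order was the reverse, with Eif2s3y at 0.00723 FPKM in knockout and 16.5 FPKM in wild type, so a step that starts from E13.5 goes from a group without Y-linked RNA to one with it in the knockout, and the other way in wild type.

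Some zeros were not plausible as levels. Eef1a1, a translation elongation factor that nearly every cell uses, and Tuba1a, the main alpha-tubulin of young neurons, were listed at 0 in knockout E15.5 telencephalon, although wild type held 4664 and 4122 FPKM there. Tmem229b was listed at 0 in wild-type E15.5 telencephalon and the small nucleolar RNA Snora31 in knockout P7 brain. In wild-type P7 brain Tmem229b stood at 38.2 FPKM and Snora31 at 56.7 FPKM. The steps of these entries are not read as changes.

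**Figure D1:**
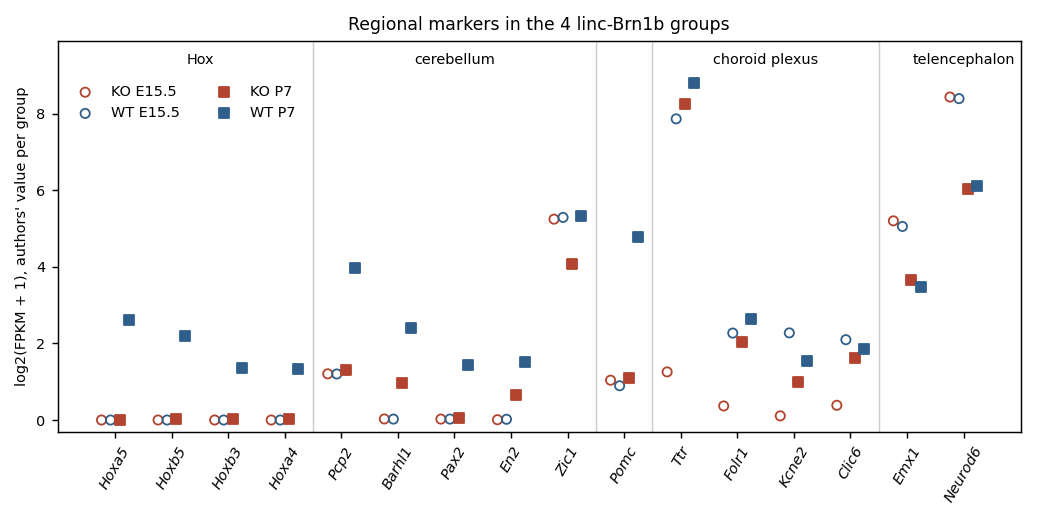
Levels of regional marker genes as log2(FPKM + 1), 1 authors' value per group, with open circles for E15.5, squares for P7, red for knockout and blue for wild type. The 4 Hox genes and Pomc stand near the embryonic level in knockout P7 brain and above it in wild-type P7 brain, and Ttr, Folr1, Kcne2 and Clic6 are lowest in knockout E15.5.

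In the knockout 2329 of 14853 genes (15.7%) were higher at P7 and 1933 (13%) were lower. In wild type 2078 of the same genes (14%) were higher and 1821 (12.3%) lower. These shares are the background for the counts of higher and lower genes in each list below. A step of at least 1 in the same direction was found in both genotypes for 1870 higher and 1477 lower genes. The median step was -0.08 in each genotype, and the standard deviation of the step over genes was 1.07 in knockout and 0.986 in wild type. Knockout and wild-type steps followed each other closely, with Pearson's r of 0.934 and Spearman's rho of 0.951 across the 14853 genes, which are not independent replicates and share their libraries.

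The knockout step exceeded the wild-type step by at least 0.5 in 609 genes (4.1%) and fell short of it by at least 0.5 in 549 (3.7%). The filter read knockout values only, so genes that reached 1 FPKM in wild type alone were left out. With at least 1 FPKM in any of the 4 groups, 15156 genes were kept, and these counts were 624 and 617. In wild type 2134 of them were higher at P7 and 1829 lower. Most of the difference between the steps of the 14853 genes lay at P7. The size of the genotype difference in log2(FPKM + 1) had a median of 0.0434 at E15.5 and of 0.154 at P7. At E15.5 it reached 0.5 in 89 genes and at P7 in 944. In 1068 of the 1158 genes whose steps differed, the P7 gap was the larger part. At P7 7049 of the 14853 genes (47.5%) were lower in knockout than in wild type and 7792 (52.5%) higher, with a median difference of 0.01. The regional gap in Hox and cerebellar markers lies at the same age, and its part in these counts was not tested.

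**Figure D2:**
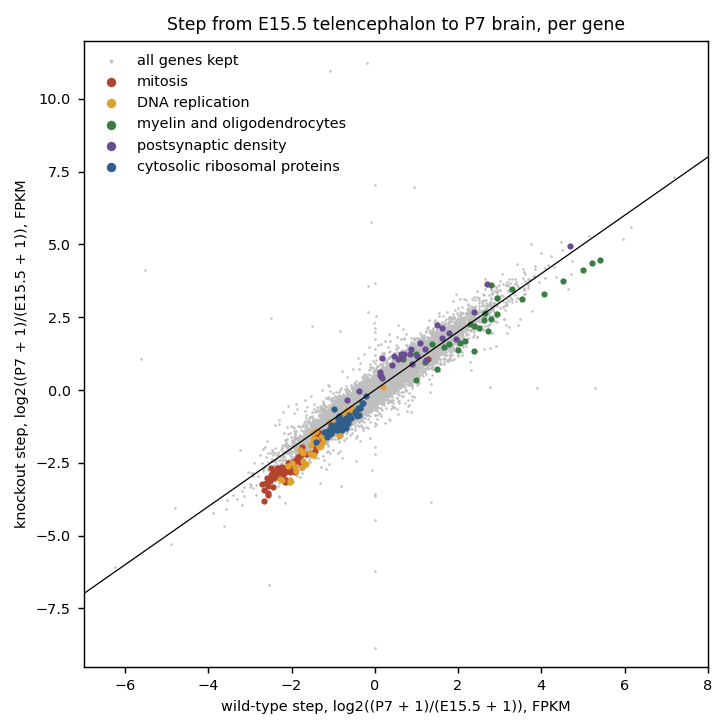
Each point is 1 of the 14853 genes kept, with the wild-type step on the horizontal and the knockout step on the vertical axis, both in log2 units, and the line marks equal steps. Points for mitosis, DNA replication and ribosomal proteins lie mostly below the line, those for the postsynaptic density mostly above it.

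**Figure D3:**
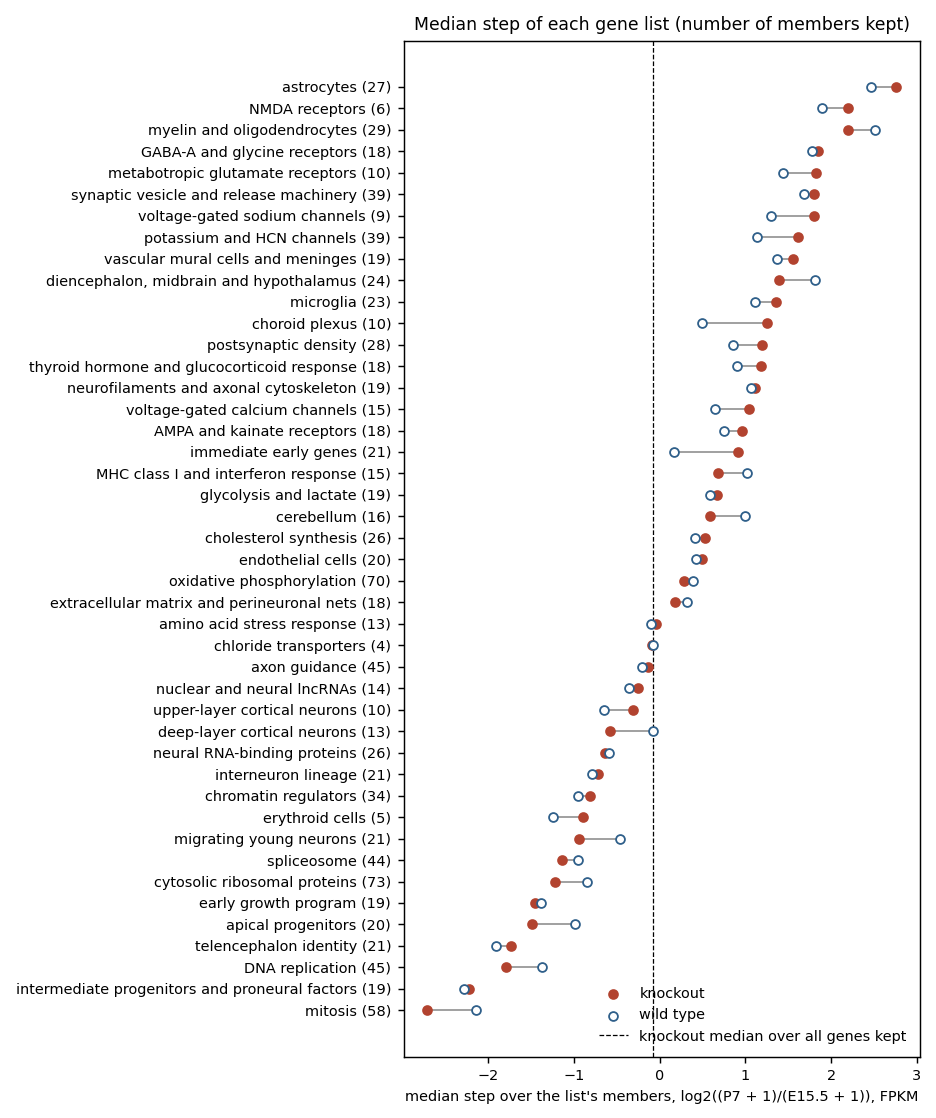
Median step over the kept members of each gene list, with filled red points for knockout, open blue points for wild type and the number of members in brackets. Mitosis has the lowest median at -2.71 in knockout and astrocytes the highest at 2.76, and the dashed line is the knockout median over all genes kept, -0.08.

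The targeted locus lies on chromosome 1 of the mouse genome, build mm9, where the table places linc-Brn1b at chr1:42763906-42770299. linc-Brn1b was listed at 0 FPKM in both knockout groups, and at 2.50 FPKM in wild-type E15.5 telencephalon and 0.799 FPKM in wild-type P7 brain. A second entry with the same coordinates, AK011913, reached at most 0.0123 FPKM in the knockout groups and held 8.73 and 1.06 FPKM in the wild-type ones. The wild-type step was -0.96 for linc-Brn1b, under 1 in size, and -2.24 for AK011913. The study designed 20 probes of 20 bases to detect single linc-Brn1b molecules by in situ hybridization, and 18 of them matched chromosome 1 at 1 place each. These sequences mark the RNA of the targeted gene, and the knockout values above cover the table entry only. Of the 18, 11 lay inside the table entry and 7 across or beyond its upper end, and all read along the plus strand, which places the RNA they bind on the minus strand. Of the 4 printed here, probe 1 lies just beyond the upper end of the entry, probe 8 inside that end, probe 14 in the lower part and probe 20 near the lower end.
probe 1 (chr1:42770523-42770542): gatgagctagagctacgccc
probe 8 (chr1:42770257-42770276): ggaagccacatctcatcaac
probe 14 (chr1:42765237-42765256): ctcttgattttctccaggta
probe 20 (chr1:42763998-42764017): agactagctcccagcagaag

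Pou3f3 (chr1:42753991-42757054), the neighbouring gene of the POU factor Brn1, was lower at P7 in both genotypes but from different levels. It was 29.2 FPKM at E15.5 and 5.81 FPKM at P7 in the knockout, and 82.5 and 22.7 FPKM in wild type, so that the steps, -2.15 and -1.82, were close. The entry 2900092D14Rik (chr1:42757181-42760021), next to it, followed the same pattern, with 8.65 and 2.72 FPKM in knockout against 24.3 and 10.5 FPKM in wild type. On the other side of Pou3f3, the noncoding entry 2610017I09Rik (chr1:42705045-42751670) was higher in the knockout, at 689 and 453 FPKM against 191 and 79.7 FPKM. Its step was -0.60 in the knockout and -1.25 in wild type, so the knockout excess was wider at P7. linc-Pou3f3-1, further out, was 1.53 and 2.49 FPKM in knockout against 0.645 and 0.319 FPKM. Mrps9 and Tgfbrap1, protein-coding genes beyond the deletion, had knockout steps of -0.47 and 0.01 and wild-type steps of -0.36 and -0.10. Counting by strand is not stated for these files, so overlapping entries cannot be told apart.

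Pou3f3 belongs to a family of POU factors that share expression in the embryonic forebrain, and its relatives had steps like those in wild type. Pou3f2, the gene of Brn2, was 29.9 FPKM at E15.5 and 7.71 FPKM at P7 in the knockout, against 27.4 and 5.46 FPKM. Pou3f4 was 15.6 and 3.99 FPKM against 13 and 3.26 FPKM. Pou3f1 held its level, with 9.11 and 9.01 FPKM in the knockout and 9.93 and 8.09 FPKM in wild type.

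Genes of neural progenitors were mostly lower in P7 brain. Of 20 genes of apical progenitors, the radial glia that line the ventricle, 12 were lower at P7 in the knockout and 10 in wild type, with medians of -1.49 and -0.98. Nes, the intermediate filament nestin, was 54.1 FPKM in knockout telencephalon and 4.37 FPKM in knockout P7 brain, with 55.2 and 6.41 FPKM in wild type. Sox2, a factor that maintains neural stem cells, was 52.5 and 17.4 FPKM against 50.8 and 22.3 FPKM. Pax6, a factor of dorsal radial glia and of cerebellar granule cells, had a knockout step of -2.56 and a wild-type step of -1.10, from 36.8 to 5.43 FPKM and from 34.0 to 15.3 FPKM. At E15.5 its levels were thus alike, and at P7 the wild-type level was higher. Tnc, the matrix protein tenascin-C, behaved the same way, at 9.71 FPKM in knockout P7 brain and 19.6 FPKM in wild type after 31.1 and 26.6 FPKM at E15.5. In both genotypes 2 members were higher at P7. They were Slc1a3, a glutamate transporter, at 134 FPKM in the knockout, and Ednrb, an endothelin receptor, at 49.6 FPKM. Hopx, a homeobox gene, was higher in wild type only by this measure, with steps of 0.88 and 1.18.

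Intermediate progenitor and proneural genes, which drive the step from progenitor to neuron, were lower at P7 for 18 of 19 members in the knockout and 17 in wild type. Their medians, -2.23 and -2.28, nearly coincided. Gene by gene, 16 of 19 were lower in knockout than in wild-type P7 brain, compared with 47.5% of all genes. For 4 the knockout step was at least 0.5 below wild type and for 0 at least 0.5 above it. Among all genes these shares were 3.7% and 4.1%. Neurog2, a proneural factor of cortical progenitors, had a knockout step of -5.30, the lowest among the protein-coding genes named here, from 45.6 FPKM to 0.182 FPKM in the knockout and from 40.6 to 0.390 FPKM in wild type. Eomes, which marks intermediate progenitors of the cortex as Tbr2, was 50.9 FPKM at E15.5 and 3.24 FPKM at P7 in the knockout, and 49.5 and 3.74 FPKM in wild type. Neither gene separated the genotypes by 0.5 in its step. Insm1, a zinc finger factor of newborn neurons, did so, with 29.7 and 1.38 FPKM in the knockout against 30.7 and 5.45 FPKM. Neurod1, which is also expressed in cerebellar granule cells, was 8.37 FPKM in knockout P7 brain and 25.03 FPKM in wild type, although the E15.5 values were 30.2 and 32.4 FPKM. For these genes the cerebellar markers moved with the difference, and the part of the cerebellum in it was not tested. The factors of newborn neurons Sox4 and Sox11 were lower in both genotypes, Sox11 from 142 to 9.67 FPKM in the knockout and from 155 to 14.7 FPKM in wild type.

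Genes of cell division had the lowest median step of all lists in the knockout. Of 58 genes of mitosis, 57 were lower at P7 in the knockout and 57 in wild type, against the 13% and 12.3% of all genes given above, and the medians were -2.71 and -2.14. The exception in both genotypes was Pttg1, the gene of securin, which was higher at P7 with steps of 1.06 and 1.27. Mki67, the proliferation antigen, was 47.5 FPKM at E15.5 and 3.18 FPKM at P7 in the knockout, and 48.02 and 7.33 FPKM in wild type. Top2a, a topoisomerase needed to separate chromosomes, was 92.6 and 5.64 FPKM against 88.5 and 13.1 FPKM. In Ccnb1, the gene of cyclin B1, the values were 44.1 and 2.66 FPKM against 41.3 and 6.08 FPKM. In each of these genes the E15.5 levels of the genotypes were close and the P7 level was lower in the knockout. The same held over the list, since 58 of 58 members were lower in knockout than in wild-type P7 brain, compared with 47.5% of all genes, with a median difference of -0.54 in log2(FPKM + 1), compared with 0.03 at E15.5. For 34 members the knockout step was below the wild-type step by at least 0.5, compared with 3.7% of all genes.

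DNA replication genes had the same pattern at smaller size. Of 45, 38 were lower at P7 in the knockout and 34 in wild type, with medians of -1.79 and -1.37. For 21, compared with 3.7% of all genes, the knockout step was at least 0.5 below wild type. Among the subunits of the replicative helicase, Mcm7 was 73.3 FPKM at E15.5 and 7.90 FPKM at P7 in the knockout, against 71.6 and 13.9 FPKM. Mcm2 was 27.7 and 3.17 FPKM against 26.8 and 6.40 FPKM, and Mcm6 was 40.3 and 9.79 FPKM against 38.7 and 14.6 FPKM. Rrm2, the regulated subunit of the enzyme that makes deoxynucleotides, was 5.17 FPKM in knockout P7 brain and 11.7 FPKM in wild type. Ccne1, the gene of cyclin E1, stayed near its embryonic level, with 4.90 and 5.41 FPKM in the knockout. The loading factors Gins3 and Gins4 and the methyltransferase Dnmt1 had nearly the same step in both genotypes, -1.42 and -1.42 for Dnmt1. At P7 41 of 45 replication genes were lower in the knockout than in wild type, compared with 47.5% of all genes. Granule neuron precursors of the cerebellum divide at this age and the summed cerebellar markers were 168 FPKM in knockout and 274 FPKM in wild-type P7 brain, against 147 and 149 FPKM at E15.5. The part of that gap in the cell cycle difference was not tested.

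Promoters of the genes that moved together were read for motifs tied to the cell cycle. E2F factors switch on S-phase genes through sites of the type TTTCCCGC, TTTCGCGC, TTTGCCGC or TTTGGCGC, and the element TTTGAA, called CHR, marks genes of G2 and mitosis. Both strands were searched in RefSeq promoters on build GRCm38.p6, from 250 bases before to 50 bases after a gene's start, and a CHR match may overlap an E2F-type match. An E2F-type match was in a promoter of 14 of 34 replication genes found in that table (41.2%) and 5 of 51 mitosis genes (9.80%). It was in 2.61% of all 27025 genes and in 2.27% of the 32851 single promoters. CHR matched 36 of 51 mitosis genes (70.6%) and 6 of 34 replication genes (17.6%), against 20.2% of all genes and 17.9% of single promoters. The CCAAT box, a general promoter element with the letters CCAAT, was in 61.8% of the replication and 74.5% of the mitosis genes, against 41.1% of all genes and 37.4% of single promoters. Among the genes kept with a promoter in the table, the E2F-type letters were in 8.82% of 1406 genes lower at P7 in the knockout, 2.18% of 1605 higher ones and 4.70% of all 10393. Without the members of both cell cycle lists the first share was 7.91%. Among helicase subunits read for E2F-type letters and mitotic genes read for CHR, Mcm2, Ccnb1 and Bub1 had no match. Mcm4, Aurkb and Ccna2 had no promoter in that table. The windows below are chosen from genes with a match, 4 helicase subunits and 4 mitotic genes. They are read 5′ to 3′ along the gene's strand, with the match to either strand of the motif in capitals. They show the letters and not a bound site.
Mcm3, E2F-type (chr1:20820276-20820303, minus strand): aacttccgtgGCGGGAAAacttgggaag
Mcm5, E2F-type (chr8:75109346-75109373, plus strand): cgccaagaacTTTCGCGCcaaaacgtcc
Mcm6, E2F-type (chr1:128359735-128359762, minus strand): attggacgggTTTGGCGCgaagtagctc
Mcm7, E2F-type (chr5:138171850-138171877, minus strand): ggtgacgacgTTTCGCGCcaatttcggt
Ccnb2, CHR (chr9:70421535-70421560, minus strand): cggcgcggtaTTTGAAtcgcggaccg
Cdk1, CHR (chr10:69352912-69352937, minus strand): ccgcggcgagTTTGAAactgctggca
Plk1, CHR (chr7:122159455-122159480, plus strand): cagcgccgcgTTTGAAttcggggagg
Cdc20, CHR (chr4:118437346-118437371, minus strand): acagttgggtTTTGAAggagccaatg

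Each of these 8 genes was lower at P7 in both genotypes and lower in knockout than in wild-type P7 brain. Plk1, a kinase that builds the mitotic spindle, was 18.4 FPKM at E15.5 and 1.56 FPKM at P7 in the knockout, against 18.1 and 2.39 FPKM. Cdc20, an activator of the complex that ends mitosis, was 33.1 and 2.46 FPKM against 31.7 and 4.52 FPKM.

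Genes of the early growth program, which many embryonic tissues switch off before or after birth, were lower at P7 for 10 of 19 members in the knockout and 11 in wild type. Igf2bp1 and Igf2bp2, RNA-binding proteins of the embryo, were 5.79 and 20.3 FPKM in knockout E15.5 telencephalon and 0.0477 and 1.13 FPKM in knockout P7 brain. Hmgb2, a chromatin protein of dividing cells, separated the genotypes most, at 141 and 8.67 FPKM in the knockout against 137 and 29.9 FPKM. Hmgn2, another nucleosome-binding protein, was 129.5 FPKM in knockout P7 brain and 223 FPKM in wild type. Igf2, a growth factor of the choroid plexus and meninges, went the other way and was 9.97 and 58.5 FPKM in the knockout, with 13.7 and 76.5 FPKM in wild type.

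Chromatin regulators were more often lower than higher at P7. Ezh2, the methyltransferase of Polycomb complex 2 in dividing cells, was 82.1 FPKM at E15.5 and 5.02 FPKM at P7 in the knockout, against 81.2 and 5.96 FPKM, while its relative Ezh1 was 7.80 and 9.60 FPKM. The neural progenitor subunit of the BAF complex, Actl6a, was 40.4 and 6.12 FPKM in the knockout, with 10.2 FPKM in wild-type P7 brain. The DNA methyltransferase Dnmt3a had a step of 1.22 in the knockout and 0.80 in wild type, and Hdac11 of 1.68 and 1.49. Over the list 13 of 34 genes were lower in the knockout and 4 higher, compared with 14 and 1 in wild type. Among all genes 13% were lower and 15.7% higher in the knockout, and 12.3% and 14% in wild type, so the higher count did not exceed that share.

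Young neurons use a cytoskeleton that differs from that of mature ones. Of 21 genes of migrating young neurons, 8 were lower at P7 in the knockout and 6 in wild type, and the 4 higher in the knockout include Tuba1a, whose E15.5 value was listed at 0. Dcx, the microtubule protein doublecortin, was 241 FPKM at E15.5 and 71.8 FPKM at P7 in the knockout, against 242 and 104 FPKM. Cd24a, a surface protein of newborn neurons, was 597 and 137 FPKM against 639 and 196 FPKM. Stmn2 and Gap43, both used in growing axons, were higher at P7 in both genotypes, with Gap43 at 370.1 and 832 FPKM in the knockout and 346 and 884 FPKM in wild type. Structural genes of mature axons were higher again, Nefl, the light neurofilament, with steps of 3.06 and 3.07 and Nefh, the heavy one, with 3.51 and 3.57. Among 19 genes of that list 10 were higher in the knockout and 10 in wild type.

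Cortical layer markers differed in their course. Among deep-layer genes, Tbr1, a factor of corticothalamic neurons, was 75.9 FPKM at E15.5 and 18.2 FPKM at P7 in the knockout, against 77.7 and 13.8 FPKM. Fezf2, a factor of subcerebral projection neurons, was 53.4 and 13.2 FPKM against 46.6 and 9.999 FPKM. Pcp4 and Crym, which mature deep-layer neurons express, were higher at P7, Crym from 20.4 to 112 FPKM in the knockout and from 13.98 to 79.0 FPKM in wild type. Of the upper-layer genes, Cux2, a homeobox factor, was lower in the knockout than in wild type at E15.5 and higher at P7. Cux2 was 14.9 and 11.8 FPKM in the knockout against 18.7 and 9.86 FPKM. Its steps of -0.31 in the knockout and -0.86 in wild type differed by more than 0.5, in part through the E15.5 level. In the whole list 3 of 10 upper-layer genes were lower in each genotype, and 4 of 13 deep-layer genes.

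The interneuron lineage, born in the ventral telencephalon, showed its early factors lower and some peptide and calcium-binding genes higher at P7. Dlx1, Dlx2 and Dlx5, which specify these cells, had knockout steps of -2.18, -2.44 and -2.17 and wild-type steps of -2.40, -2.42 and -2.57. Vip, a peptide of a late-maturing interneuron class, was listed at 0 FPKM in knockout E15.5 and 3.73 FPKM in knockout P7 brain, and Pvalb, the calcium buffer parvalbumin, was 3.66 FPKM there against 5.74 FPKM in wild type. Calb2, the gene of calretinin, was 14.9 and 99.4 FPKM in the knockout, against 12.8 and 76.1 FPKM. Gad2, which makes GABA, was 27.4 and 40.6 FPKM against 26.3 and 27.5 FPKM. Of all 21 telencephalon identity genes, 16 were lower at P7 in the knockout and 14 in wild type, a change in which the wider dissection at P7 cannot be told apart from age.

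**Figure D4:**
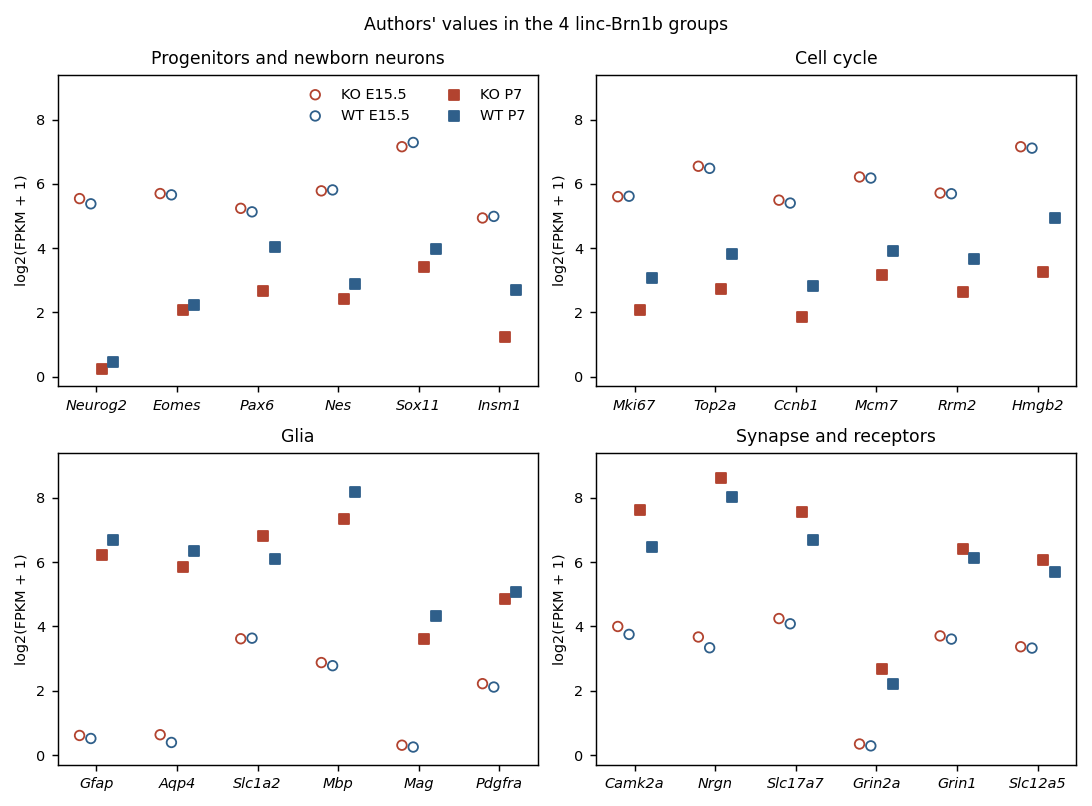
Levels of 24 genes as log2(FPKM + 1), 1 authors' value per group, with open circles for E15.5, squares for P7, red for knockout and blue for wild type. E15.5 points of the genotypes nearly coincide, and at P7 the knockout is lower for the 6 cell cycle genes and higher for the 6 synapse and receptor genes.

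Astrocyte genes had the highest median step of all lists in the knockout. Of 27, 23 were higher at P7 in each genotype, with medians of 2.76 in the knockout and 2.47 in wild type. Gfap, the astrocyte intermediate filament, was 0.527 FPKM at E15.5 and 74.0 FPKM at P7 in the knockout, and 0.431 and 101.3 FPKM in wild type. Aqp4, a water channel of astrocyte endfeet, was 0.552 and 56.1 FPKM against 0.313 and 81.0 FPKM. The lipid carrier Apoe was 39.6 and 765 FPKM against 42.4 and 860.5 FPKM. Both Gfap and Aqp4 were thus lower in knockout than in wild-type P7 brain. Slc1a2, the main glutamate transporter of forebrain astrocytes, differed in the opposite sense, at 11.3 and 111 FPKM in the knockout and 11.4 and 67.7 FPKM in wild type. Dio2, the enzyme by which astrocytes activate thyroid hormone, was 13.4 FPKM against 5.55 FPKM at P7. Sox9 and Nfia, factors that start astrocyte formation, were lower at P7 in the knockout, with steps of -1.43 and -1.33. They were the 2 lower genes of the list in the knockout, whereas only 1 gene of the list was lower in wild type. Other genes among the highest knockout steps are also used by astrocytes or meninges, namely Gpr37l1 with steps of 5.28 and 5.14, the mitochondrial carrier Slc25a18 with 4.62 and 4.24, and Ptgds, a prostaglandin synthase of meninges and choroid plexus, with 7.32 and 7.18.

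Oligodendrocyte genes were mostly higher at P7. Over the list 26 of 29 were higher at P7 in each genotype, with medians of 2.19 and 2.51. Mbp, myelin basic protein, was 6.35 FPKM at E15.5 and 161 FPKM at P7 in the knockout, against 5.87 and 292 FPKM. Mag, an adhesion protein of myelin, was 0.238 and 11.2 FPKM against 0.190 and 19.01 FPKM. The P7 levels of these myelin genes were lower in the knockout. Over the list 23 of 29 genes were lower in knockout than in wild-type P7 brain and 6 higher, compared with 47.5% and 52.5% of all genes. Pdgfra, the receptor that marks oligodendrocyte progenitors, was among the lower ones, at 27.7 FPKM against 32.4 FPKM. The higher ones were Gpr17, Olig1, Olig2, Nkx2-2, Bmp4 and Cspg4. Gpr17, a receptor of cells about to make myelin, was 1.17 and 25.1 FPKM against 1.25 and 14.7 FPKM, and Olig1, a lineage factor, was 64.7 FPKM against 51.8 FPKM at P7. Sox10 was nearly equal, at 11.6 and 11.8 FPKM. In 10 of 29 genes the knockout step was at least 0.5 below wild type and in 1 at least 0.5 above it. Among all genes these shares were 3.7% and 4.1%. Hox levels differed at the same age as given above, and the part of hindbrain tissue in the myelin difference was not tested.

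Microglia, the macrophages of the brain, had 17 of 23 genes higher at P7 in each genotype. P2ry12, a purine receptor of resting microglia, was 2.46 FPKM at E15.5 and 12.2 FPKM at P7 in the knockout, against 1.96 and 7.49 FPKM. Tmem119 was 0.650 and 4.35 FPKM against 0.610 and 2.26 FPKM. Among complement genes, C1qa was 18.1 FPKM in knockout and 16.0 FPKM in wild-type P7 brain. Antigen presentation genes were higher at P7 for 6 of 15 members in the knockout and 8 in wild type, B2m with steps of 1.65 and 1.74.

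Endothelial genes were higher at P7 for 4 of 20 members in each genotype, not far from the 15.7% and 14% of all genes, with Pecam1, an adhesion protein of vessels, at 6.89 and 6.69 FPKM in the knockout. Slco1a4, a blood-brain barrier transporter, was 0.0190 and 3.63 FPKM in the knockout and 0.415 and 2.96 FPKM in wild type. Genes of mural cells and meninges were higher for 12 of 19 members in each genotype. Among them Col1a2, a fibrillar collagen, was 0.753 and 13.2 FPKM in the knockout against 1.23 and 21.02 FPKM, and Dcn, decorin, was 1.32 and 21.1 FPKM against 1.26 and 22.5 FPKM. With E13.5 in place of E15.5 the median of this list was 0.43 in the knockout, instead of 1.55, and 0.27 in wild type, instead of 1.37. Col3a1, another fibrillar collagen, was 19.3 FPKM in knockout and 38.5 FPKM in wild type at E13.5 but 0.819 and 0.997 FPKM at E15.5, so the count rests on low E15.5 values. Hbb-y, an embryonic globin, was 16.7 FPKM in knockout telencephalon and 0.0611 FPKM in knockout P7 brain, with 26.7 FPKM and a listed 0 in wild type. Globin genes share near-identical copies, so their levels are uncertain.

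Cerebellar genes themselves showed the regional gap in their steps. Of 16 kept markers 7 were higher and 3 lower at P7 in the knockout, against 8 and 0 in wild type. For 11, compared with 3.7% of all genes, the knockout step was at least 0.5 below wild type. Zic1, a factor of granule cells and meninges, was 36.9 FPKM at E15.5 and 16.0 FPKM at P7 in the knockout, against 38.1 and 38.8 FPKM. Pax2, a factor of cerebellar interneurons, was 0.0295 FPKM in knockout and 1.70 FPKM in wild-type P7 brain.

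For choroid plexus genes the knockout steps started from the low E15.5 level. Of 10 kept markers, 7 were higher at P7 in the knockout and 0 in wild type. Ttr had the largest such step, from 1.39 to 301 FPKM in the knockout and from 231 to 443 FPKM in wild type. Sostdc1 was 0.517 and 4.32 FPKM against 2.60 and 4.22 FPKM. Kcne2, a potassium channel subunit that did not reach 1 FPKM in the knockout and is not among the kept markers, was 0.0777 and 0.997 FPKM against 3.84 and 1.89 FPKM. At E13.5 Ttr was 188 FPKM in the knockout and 146 FPKM in wild type, so the low value stood in knockout E15.5 alone.

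Synaptic genes were mostly higher at P7. Of 39 genes of synaptic vesicles and release, 32 were higher at P7 in the knockout and 29 in wild type, none was lower in either, and the medians were 1.80 and 1.68. Slc17a7, the vesicular glutamate transporter of cortical neurons, was 17.98 FPKM at E15.5 and 187 FPKM at P7 in the knockout, and 16.0 and 102 FPKM in wild type. Syp, the vesicle protein synaptophysin, was 69.6 and 429.7 FPKM against 68.8 and 342 FPKM. Snap25, a part of the fusion complex, was 60.5 and 348 FPKM against 58.5 and 262 FPKM. At P7 the knockout level was above wild type in 34 of 39 genes, compared with 52.5% of all genes. Slc17a6, the transporter used more in thalamus and brainstem, was among the exceptions, at 45.6 FPKM against 48.3 FPKM, and so was Syt2, a calcium sensor of fast synapses, at 6.12 FPKM against 7.38 FPKM.

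The postsynaptic density, the protein scaffold opposite glutamate release sites, differed more between the genotypes. Here 20 of 28 genes were higher at P7 in the knockout and 12 in wild type. For 10, compared with 4.1% of all genes, the knockout step was at least 0.5 above wild type. Camk2a, a kinase of synaptic plasticity in the forebrain, was 15 FPKM at E15.5 and 198 FPKM at P7 in the knockout, against 12.5 and 87.0 FPKM. Nrgn, the calmodulin-binding protein neurogranin, was 11.8 and 396 FPKM against 9.12 and 262 FPKM. Shank3, a scaffold, was 5.49 and 29.8 FPKM against 5.56 and 17.3 FPKM, and Dlg4, the gene of PSD-95, was 182 and 137 FPKM at P7. In 27 of 28 genes the P7 level was higher in the knockout, against 52.5% of all genes, with a median difference of 0.40 in log2(FPKM + 1) after 0.03 at E15.5. The lack of Hox transcripts moved with this difference, and its part was not tested.

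Receptor genes took part in the same step. All 6 kept NMDA receptor subunits were higher at P7 in the knockout and 4 in wild type. Grin2b, the subunit that predominates before birth, was already 9.07 FPKM at E15.5 and reached 23.7 FPKM at P7 in the knockout, whereas Grin2a, which joins later, went from 0.270 to 5.44 FPKM. In wild type Grin2b was 9.11 and 18.9 FPKM and Grin2a 0.221 and 3.64 FPKM. The obligatory subunit Grin1 was 12.1 and 83.4 FPKM in the knockout, against 11.2 and 69.4 FPKM. AMPA and kainate receptor genes moved less, with 8 of 18 higher in the knockout and 6 in wild type. Gria2, the subunit that blocks calcium entry, stayed near its level with steps of 0.10 and -0.30, while the auxiliary subunit Cacng3 had 2.52 and 1.83. In the list for metabotropic receptors, which includes the scaffold Homer3, 7 of 10 genes were higher in each genotype. Grm3 had steps of 2.93 and 3.15, and Homer3 was lower with -1.72 and -1.34.

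GABA-A and glycine receptor subunits were higher at P7 for 16 of 18 genes in the knockout and 15 in wild type. Glrb, the beta subunit of glycine receptors, was 9.10 FPKM at E15.5 and 68.0 FPKM at P7 in the knockout and 8.73 and 59.9 FPKM in wild type. Gabra2, an alpha subunit of younger neurons, ended lower in the knockout, at 8.76 and 21.1 FPKM against 8.395 and 36.4 FPKM. Gabra6, which is restricted to cerebellar granule cells, was 0.0324 FPKM in knockout and 0.519 FPKM in wild-type P7 brain. The glycine receptor Glra1 of spinal cord and brainstem was 1.34 against 2.23 FPKM. The direction of chloride flow through these receptors depends on 2 transporters. Slc12a5, the gene of the exporter KCC2, was 9.34 and 65.9 FPKM in the knockout against 9.04 and 51.3 FPKM, and Slc12a2, the gene of the importer NKCC1, was 12.2 and 9.57 FPKM against 12.5 and 12.04 FPKM.

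Ion channel genes were partly higher at P7. For sodium channels the counts were 6 of 9 in the knockout and 5 in wild type, for calcium channels 8 and 6 of 15, and for potassium and HCN channels 24 and 22 of 39. Scn2a1, the sodium channel of young axons, was 8.15 FPKM at E15.5 and 56.5 FPKM at P7 in the knockout, against 8.22 and 44.3 FPKM. Its auxiliary subunit Scn2b was 2.80 and 19.2 FPKM against 2.86 and 8.47 FPKM, and the embryonic channel Scn3a held its level with steps of 0.03 and -0.13. All 15 calcium channel genes were higher in knockout than in wild-type P7 brain, where 52.5% of all genes were. Kcnj4, an inward rectifier of forebrain neurons, had the highest potassium channel step, 3.72 in the knockout and 3.18 in wild type, and Kcnip2, a partner of A-type channels, 3.09 and 2.63.

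Immediate early genes, which neurons switch on within minutes of activity, had steps that were larger in the knockout. In the knockout 10 of 21 were higher at P7 and in wild type 4, with medians of 0.91 and 0.17. Egr1 was 1.91 FPKM at E15.5 and 17.4 FPKM at P7 in the knockout, against 1.97 and 7.66 FPKM. Fos was 0.847 and 6.73 FPKM against 0.807 and 3.68 FPKM, and Junb was 2.27 and 6.97 FPKM against 2.39 and 2.81 FPKM. Arc, which acts at the synapse, was 1.93 and 5.26 FPKM against 1.48 and 1.79 FPKM. All 21 members were higher in knockout than in wild-type P7 brain, as were 52.5% of all genes, by a median of 0.71 in log2(FPKM + 1). For 11, compared with 4.1% of all genes, the knockout step exceeded wild type by at least 0.5. The median difference at E15.5 was 0.02.

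Hormone-responsive genes were higher at P7 for 9 of 18 members in each genotype. Klf9, a target of thyroid hormone and glucocorticoids, was 0.720 FPKM at E15.5 and 27.9 FPKM at P7 in the knockout, and 0.756 and 19.95 FPKM in wild type. The receptor Thrb had steps of 2.26 and 1.70, and Dio3, the enzyme that inactivates thyroid hormone, of -1.02 and -1.12. Cirbp, an RNA-binding protein induced by cold, was 106 and 65.4 FPKM in the knockout and 101.5 and 115 FPKM in wild type, and so had steps of opposite sign.

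Genes of protein synthesis and splicing were lower at P7 for most members in the knockout. Of 73 cytosolic ribosomal protein genes, 55 were lower in the knockout and 19 in wild type, none was higher, and the medians were -1.22 and -0.85. Rpl31 was 405 FPKM at E15.5 and 116 FPKM at P7 in the knockout, against 387 and 145 FPKM, and Rps6 was 536 and 194 FPKM against 509.8 and 244 FPKM. Ribosomal protein genes have many processed copies in the genome, which makes single values uncertain. With E13.5 in place of E15.5 the knockout median was -0.06 and the wild-type median -0.81, so the knockout step of this list rests on the age chosen. Spliceosome genes were lower for 31 of 44 in the knockout and 20 in wild type, Snrpg, a core snRNP protein, with steps of -2.16 and -1.66. Among neural splicing regulators, Ptbp1, which represses neuronal exons in progenitors, was 59.6 and 14.47 FPKM in the knockout against 58.5 and 20.04 FPKM, and Rbfox3, which marks mature neurons as NeuN, was 25.6 and 57.3 FPKM against 24.5 and 52.4 FPKM.

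Energy and lipid metabolism moved less. None of 70 nuclear genes of oxidative phosphorylation had a step of 1 in either genotype, with medians of 0.28 and 0.39. With E13.5 in place of E15.5 the knockout median was 1.15 and the wild-type median 0.43, so the value moved mainly in the knockout. Glycolytic genes were higher for 6 of 19 members in the knockout, among them Eno2, the neuronal enolase, from 16.0 to 131 FPKM, with 15.3 and 108 FPKM in wild type. In the list for cholesterol synthesis, which also holds other lipid enzymes, 3 of 26 genes were higher in each genotype, no more than among all genes. They were Tm7sf2, Scd1, a fatty acid desaturase, and Cyp46a1, the neuronal enzyme that turns over cholesterol, the last with 4.91 and 35.9 FPKM in the knockout against 4.83 and 25.7 FPKM. Amino acid stress genes were mixed, with 4 of 13 higher and 2 lower in the knockout, compared with 15.7% and 13% of all genes. Slc7a11, a cystine transporter, was 0.381 and 14.4 FPKM in the knockout against 0.379 and 8.47 FPKM.

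Axon guidance genes were lower at P7 for 9 of 45 members in the knockout and higher for 5, with 10 and 5 in wild type, not far from the 13% lower and 15.7% higher among all genes. Efnb1, an ephrin of progenitors, was 37.5 and 4.87 FPKM in the knockout against 38.8 and 5.16 FPKM, and Dcc, the netrin receptor, 26.9 and 6.15 FPKM against 28.5 and 8.64 FPKM. Ntng1, a netrin relative of thalamic axons, was higher with steps of 2.57 and 2.31. In the extracellular matrix the embryonic proteoglycan Vcan was 43.3 and 11.7 FPKM in the knockout, and Bcan and Hapln1, parts of the mature neural matrix, reached 74.2 and 12.3 FPKM at P7 from 9.65 and 0.0980 FPKM. Of 24 genes of diencephalon, midbrain and hypothalamus, regions outside the E15.5 dissection, 17 were higher at P7 in the knockout and 18 in wild type. Tcf7l2, a thalamic factor, was 23.8 FPKM in knockout and 21.5 FPKM in wild-type P7 brain. At P7 13 of the 24 genes were higher in knockout than in wild type and 11 lower, near the 52.5% and 47.5% of all genes. The hypothalamic peptides Avp and Pmch were 11.1 and 8.94 FPKM in the knockout against 2.98 and 5.03 FPKM. Pomc went the other way, at 1.15 FPKM against 26.6 FPKM. Genes of these regions were thus expressed in both P7 groups.

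Of 903 lincRNA entries kept, 136 (15.1%) were higher and 99 (11%) lower at P7 in the knockout, close to the 15.7% and 13% of all genes kept. linc-Sox4-AS (chr13:29036493-29067337), which shares its table entry's position with Sox4, was 76.7 FPKM at E15.5 and 8.16 FPKM at P7 in the knockout, against 78.9 and 12.5 FPKM. linc-Zfp295 was 16.4 and 0.440 FPKM against 16.8 and 1.47 FPKM, and linc-Snapc3-2 was 20.3 and 2.02 FPKM against 18.6 and 4.30 FPKM. These lincRNAs were thus lower at P7 in both genotypes, a change in which age and dissected region cannot be told apart. linc-Tfap2c was 11.8 and 0.673 FPKM against 9.48 and 1.88 FPKM. linc-Traf7-AS was 5.95 FPKM in knockout E15.5 and at most 0.0693 FPKM in the other 3 groups. Higher at P7 were linc-Pkia-2, at 242 and 1581 FPKM in the knockout against 229 and 3148 FPKM, and linc-Snrpn-5, at 4.83 and 34.2 FPKM against 4.79 and 28.1 FPKM.

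Among the 4 groups compared, some lincRNAs were high in knockout P7 brain alone. linc-Nsfl1c-1 (chr2:151285374-151285782) was 188 FPKM there and 2.47 FPKM in knockout E15.5, 2.26 FPKM in wild-type E15.5 and 2.04 FPKM in wild-type P7. In E13.5 telencephalon it was 181 FPKM in the knockout and 2.35 FPKM in wild type, so it was high in 2 of the 3 knockout groups. linc-4933402J07Rik-5 was 11.8 FPKM in knockout P7 brain and 6.92 FPKM in knockout E13.5, and listed at 0 elsewhere. linc-Gpc5-4 was 5.18 FPKM in knockout P7 and 5.33 FPKM in knockout E13.5, and at most 0.0508 FPKM in the other groups. The 3 entries were therefore low in knockout E15.5, and their steps do not follow age within the knockout.

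Among annotated noncoding RNAs, Meg3, an imprinted RNA of mature neurons, was 185 FPKM at E15.5 and 588 FPKM at P7 in the knockout, against 214 and 457 FPKM. Snhg11, a neuronal host RNA, was 23.8 and 182 FPKM against 26.7 and 137 FPKM. Gas5, a host of small nucleolar RNAs, was 132 and 19.3 FPKM in the knockout and 136 and 59.2 FPKM in wild type, and 16.3 against 105 FPKM at E13.5. Dlx6os1, transcribed at the Dlx5 and Dlx6 locus of interneurons, was 9.05 and 0.288 FPKM against 7.84 and 0.170 FPKM.

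The steps that departed most from wild type had mixed origins. Apart from listed zeros, Tuba1c, an alpha-tubulin close in sequence to Tuba1a, was higher at P7 in the knockout and lower in wild type, from 10.7 to 52.4 FPKM and from 11.1 to 3.23 FPKM. Reads from its near-identical relatives could be divided between these entries, so the value is uncertain. Bcl6, a repressor in newborn cortical neurons, was 3.42 and 5.98 FPKM in the knockout and 3.48 and 1.59 FPKM in wild type. Cpne1 was 9.56 and 7.42 FPKM against 9.11 and 2.18 FPKM, and Ufd2, a ubiquitin chain factor, 8.01 and 5.21 FPKM against 6.95 and 0.861 FPKM. In these 3 genes the wild-type level at P7 was the one that stood low. At the other end Pomc and Pcp2 had knockout steps of 0.07 and 0.10 and wild-type steps of 3.89 and 2.77, as the regional markers above. Among the genes with the highest knockout steps, Nov, Pcp4l1, Thy1 and Prkcc, the last the gene of a neuronal protein kinase C, were all higher in knockout than in wild-type P7 brain. Pcp4l1 was 0.608 and 50.9 FPKM against 1.38 and 30.8 FPKM, and Prkcc 1.40 and 62.3 FPKM against 1.39 and 37.4 FPKM. Both were also higher at P7 in wild type. Nov was 1.06 and 68.3 FPKM against 1.09 and 45.7 FPKM, and Thy1, a surface protein of axons, 7.08 and 224 FPKM against 6.53 and 171 FPKM. These surface and secreted proteins likewise were higher at P7 in both genotypes. Among the lowest, Igfbpl1 was 166 and 5.51 FPKM against 176 and 13.3 FPKM. Gpc2, a proteoglycan of growing axons, was 143 and 7.57 FPKM against 158 and 12.3 FPKM, and Fam60a 40.7 and 1.68 FPKM against 41.3 and 3.62 FPKM.

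Entries of small RNAs filled several extreme places. Mirlet7d was 459 FPKM, Mir677 72.6 FPKM, Snora41 21.1 FPKM, Snora75 11 FPKM and Mir466i 10.8 FPKM in knockout E15.5 telencephalon and listed at 0 in the other 3 groups, and Mir7-1 was 132 FPKM in knockout P7 brain alone. Snora34 was 66.8 FPKM in knockout and 74.7 FPKM in wild-type E15.5 telencephalon and listed at 0 at P7. A library of longer RNA measures such short transcripts poorly, and FPKM divides by a very short length.

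**Figure D5:**
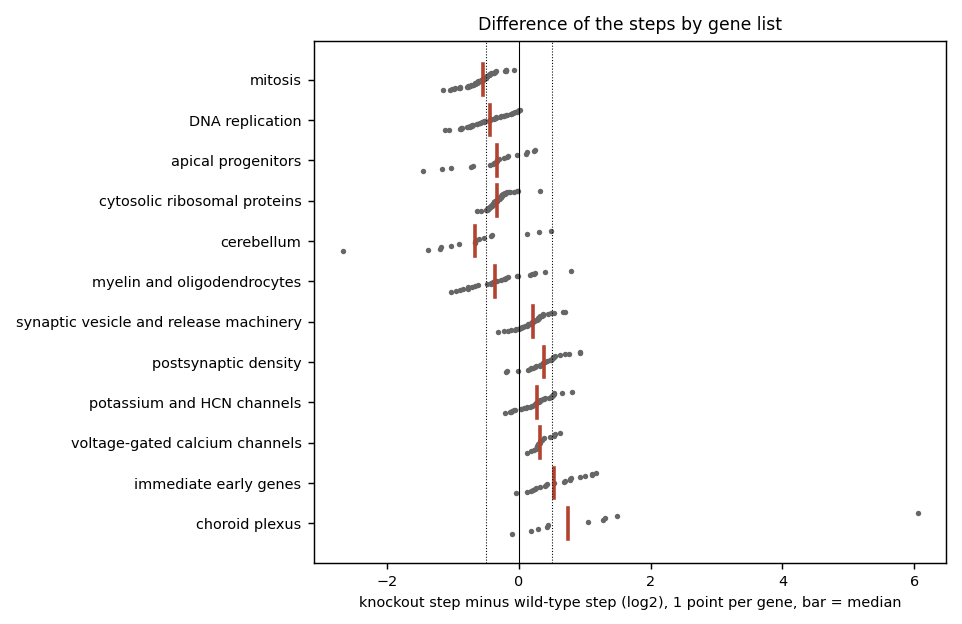
Knockout step minus wild-type step in log2 units, 1 point per gene in 12 gene lists, with a red bar at each list's median and dotted lines at -0.5 and 0.5. Medians lie below 0 for mitosis, at -0.55, and cerebellum, at -0.66, and above 0 for immediate early genes, at 0.53, and choroid plexus, at 0.75.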

How the data were processed

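RNA was sequenced from linc-Brn1b knockout and wild-type mouse telencephalon (E13.5, E15.5) and P7 brain. Libraries were made from total RNA with the TruSeq RNA kit and read as paired ends. The authors mapped reads with TopHat2 to build mm9, quantified transcripts with Cufflinks 2.0.2 and deposited Cuffdiff output, in which each group has 1 FPKM value that pools its libraries. Per the labels 3 knockout libraries exist at E15.5, and how many entered the pooled value cannot be read from the table. The table repeats each group's value in 5 of 30 columns, which were identical. Its other columns hold the authors' fold changes, test statistics, p-values and q-values and were not used. The tables of the other strains, normalized separately, were not used. Counts and depth per library are unknown, so no interval or limit of detection is given.

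Steps were log2((P7 + 1)/(E15.5 + 1)) for entries with at least 1 FPKM in either knockout group. A step of at least 1, or a difference of steps (knockout minus wild type) of at least 0.5, was counted. Where a symbol had several rows, the row with the highest value was used for lists. Named genes were those of 48 lists, the 15 highest and 15 lowest knockout steps, the 10 differences at each end among genes with at least 5 FPKM in 1 group, and the 5 lincRNA entries at each end, of which some are not reported here. The members and lists were chosen with earlier results of these data known. No test was fitted, because the table has no replicate values, and the scripts were tested on simulated data. Alternatives varied the pseudocount, filter, scaling, embryonic age and thresholds, and 2 more were chosen after seeing the data. Starts in the table count from 0 and 1 was added: of 7988 entries whose end matched an annotated gene of the same symbol, 4578 then had its start. Promoters came from RefSeq, GRCm38.p6, and 10393 of the 14853 entries matched one by symbol. Python 3.11.15, numpy 2.4.6, pandas 2.3.3, scipy 1.17.1 and matplotlib 3.10.9 were used.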

Additional observations from a re-analysis of the deposited data

Results flagged for a closer look

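In 6 entries, of which 5 are named genes, the knockout and wild-type steps went in opposite directions by at least 1 each, and in none was the difference tested, since 1 value per group allows no test. The difference of steps, knockout minus wild type, was 3.71 for Tuba1c, 12.03 for Eef1a1, which is listed at 0 in knockout E15.5, -5.21 for Snora15, 6.69 for Snora44 and 9.64 for Mir760. Snora15, Snora44 and Mir760 are entries of small RNAs. The remaining one, the RIKEN entry 3930401K13Rik, had a difference of 4.97. None of the 6 groups has values for single libraries, so no library could be examined for standing apart from the others.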

How the results depend on the processing

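No paired analysis was possible because the table holds 1 pooled value per group, and for the same reason leaving out each library was not run. With a minimum of 0.5 for a step and 1 for a difference, 4192 genes were higher and 4530 lower in the knockout, 4013 higher and 4505 lower in wild type, and 73 steps were above and 88 below wild type. A pseudocount of 5 gave 1163, 973, 970, 817, 171 and 188 in that order, and a pseudocount of 0.1 gave 1096 and 963 differing steps. At 5 FPKM, 400 knockout steps exceeded wild type. With E13.5 in place of E15.5, 1177 were above and 951 below. Over 768 alternative medians of the lists, none that was at least 1 in size changed sign and 83 crossed a size of 1. Of 960 alternative values of named genes, 61 crossed the size counted (1 for a step, 0.5 for a difference) and 13 changed sign from beyond it, all with E13.5: the wild-type step of Snora31 (0.717), the knockout step of Eef1a1 (-1.08) and its difference (-0.087), the knockout step of Tuba1c (-0.30), the difference for Ttr (-0.92) and linc-Zfp295 (0.146), the knockout step, wild-type step and difference of linc-Tfap2c (0.489, 0.365, 0.124), the knockout and wild-type steps of linc-Pkia-2 (-1.56, -0.027) and the knockout step and difference of linc-Gpc5-4 (-0.034, -0.087). Their cause was not tested. Upper-quartile scaling shifted steps by 0.0941 in the knockout and 0.112 in wild type. The 2 alternatives chosen after seeing the data kept all 6 counts within 1.5 times.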
